A study of Mus musculus with 16 samples.

Results

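ATRX-dependent HNDs are short stretches of chromatin that carried trimethylated histone H3 lysine 9 (H3K9me3) in wild-type (WT) mouse embryonic stem cells (ESCs) and lost the call in cells without ATRX. The HNDs described here lie in introns of protein-coding genes shorter than 200 kb. On chromosomes 1 to 19 of the mouse genome mm9, an HND was taken when it shared a base with such a gene in GENCODE M1, touched no gene of 200 kb or longer and no exon record, and lay more than 1 kb from every gene start. This gave 1454 of the 13113 HNDs, or 12.2% of the 11899 HNDs on these chromosomes. Another 1345 lay in introns of genes of 200 kb or longer and 8126 were intergenic. The rule used positions only and no level of H3K9me3. At its edges, the HND of the host Pate2 nearest to a gene start lay 1004 bp from it, and the nearest HND outside the rule lay 995 bp from one. The longest host was Morc1 with 199.669 kb, and the shortest gene above the limit that held an HND was Pcbp3 with 200.031 kb.

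The series holds 16 ChIP-seq libraries, in which antibody-bound DNA fragments are sequenced, with 2 WT and 2 *Atrx* KO libraries each for H3K9me3, for histone H3, for a control IgG and for input DNA. WT cells were of line wt26, the KO lines were KO1-40 and KO1-45, and all were grown in serum medium with LIF on gelatine. Each KO line gave 1 of the KO replicates, but the labels do not say which, and whether the WT replicates are separate cultures is not stated. The deposited outcome is 1 consensus list of positions, so it gives neither the depth behind each HND nor an error between replicates, and the labelled cell type could not be checked against marker genes. The spread given below is between chromosomes, and intervals are 95% intervals that cover counting error only.

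ATRX is a chromatin remodeller of the SWI/SNF-like family that, with the histone chaperone DAXX, places the histone variant H3.3 at repeats and telomeres. H3K9me3 is set by methyltransferases such as SETDB1 and SUV39H1 and is read by heterochromatin protein 1 (HP1), which can compact the chromatin fibre. Introns hold most of the transposon-derived sequence inside genes, so a gene can be transcribed through short marked stretches.

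Some HNDs in introns shared sequence with many others, and the most shared words show which sequence recurred. Every run of 24 bases in the HNDs was counted over both strands of mm9, and runs that repeat a unit of up to 6 bases were set aside. Words were taken in order of the number of HNDs that held them, and a word was passed over when more than 25% of its HNDs already held an earlier word. The most shared word, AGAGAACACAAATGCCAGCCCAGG, was in 27 of the 1454 HNDs and had 9563 copies in mm9. It was in 1.86% of these HNDs, 2.08% of those in introns of longer genes and 2.10% of intergenic HNDs. It stands in capitals, on the plus strand of mm9 and in the reverse complement of the form just given, in 2 of the widest HNDs that hold it. These lie in introns of Mnat1, which encodes a subunit of the CDK-activating kinase, and of Slc17a6, which encodes a vesicular glutamate transporter:
Mnat1, chr12:74364222-74364341: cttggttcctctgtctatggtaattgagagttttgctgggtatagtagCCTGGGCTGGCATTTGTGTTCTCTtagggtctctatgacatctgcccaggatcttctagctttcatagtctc
Slc17a6, chr7:58911183-58911302: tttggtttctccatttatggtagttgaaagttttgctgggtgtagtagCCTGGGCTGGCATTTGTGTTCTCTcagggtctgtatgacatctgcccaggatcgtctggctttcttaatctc
Aligned on the word without gaps, the stretches had the same base at 106 of 120 positions.

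The next word, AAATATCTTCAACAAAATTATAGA, was in 24 HNDs and had 7377 copies in mm9. It is capitalised in HNDs of Asb3, which encodes an ankyrin repeat and SOCS box protein, and of Hus1, a clamp protein of the DNA damage checkpoint:
Asb3, chr11:30857297-30857416: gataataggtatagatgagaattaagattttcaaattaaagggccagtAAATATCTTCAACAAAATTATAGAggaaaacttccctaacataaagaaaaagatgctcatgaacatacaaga
Hus1, chr11:8901392-8901511: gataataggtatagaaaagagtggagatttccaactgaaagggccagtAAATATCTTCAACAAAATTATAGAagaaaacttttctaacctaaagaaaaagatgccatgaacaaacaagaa
The third word, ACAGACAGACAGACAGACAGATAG, was in 21 HNDs. It was in 1.44% of these HNDs, 1.86% of those in introns of longer genes and 1.77% of intergenic HNDs. It is close to a simple tandem repeat. Its reverse complement is capitalised in an HND of Tmprss6, a membrane serine protease:
Tmprss6, chr15:78293037-78293156: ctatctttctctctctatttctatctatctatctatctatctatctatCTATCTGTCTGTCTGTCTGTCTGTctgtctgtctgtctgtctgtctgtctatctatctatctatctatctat
The stretches of the second word matched at 96 of 120 positions when aligned the same way. Of 697344 distinct words, 95.5% were in 1 HND, and the 25 words chosen this way were found in 336 HNDs, or 23.1%.

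A few words had a large part of their intron copies inside HNDs. The word with the largest share among the 25, picked after its values were seen, was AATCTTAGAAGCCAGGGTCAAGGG. Of its 52 copies in eligible introns of genes under 200 kb, 16 (30.8%) lay inside an HND, against 13.5% of the copies in introns of longer genes and 15.2% of intergenic copies. The words were chosen for being in HNDs of these introns, which favours this class, and the difference was not tested. Eligible sequence here means all bases where an HND could meet the rule. In that form the word ran along the strand of the host in 40 of the 52 copies and against it in 12. Of the copies inside HNDs that met the rule, 13 ran along the host and 1 against it, and the others lay in HNDs that did not meet it. The word is capitalised in an HND of Tusc3, a subunit of the oligosaccharyltransferase complex. Its reverse complement is capitalised in an HND of Bcat1, a branched-chain amino acid aminotransferase:
Tusc3, chr8:40180077-40180196: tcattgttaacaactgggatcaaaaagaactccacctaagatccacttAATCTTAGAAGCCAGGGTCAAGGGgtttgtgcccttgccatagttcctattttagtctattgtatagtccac
Bcat1, chr6:145019470-145019589: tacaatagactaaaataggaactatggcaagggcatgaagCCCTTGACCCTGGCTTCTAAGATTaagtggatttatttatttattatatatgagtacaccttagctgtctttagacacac
Another word of this kind, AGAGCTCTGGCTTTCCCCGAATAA, had 17 of 64 eligible copies (26.6%) in HNDs, against 6.67% in introns of longer genes and 8.36% between genes, with the same choice behind it. The plot of copies inside HNDs shows both words apart from the others.

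**Figure D1:**
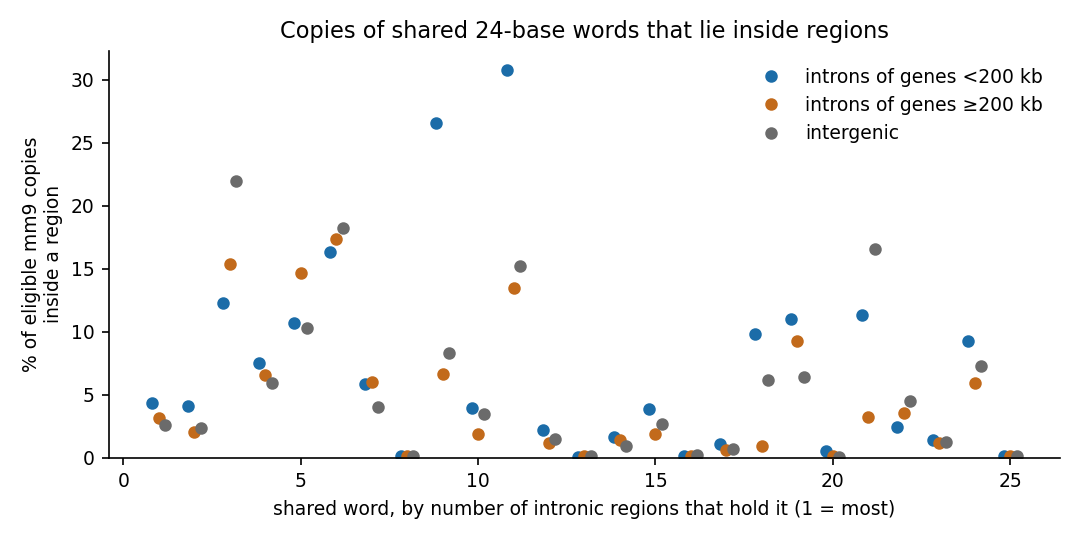
Share of the eligible mm9 copies of each of the 25 shared 24-base words that lie inside an HND (y axis, percent), with words ordered by the number of intronic HNDs that hold them (x axis) and colours for introns of genes under 200 kb, introns of longer genes and intergenic sequence. In introns of genes under 200 kb the shares ran from 0.105% to 30.8%, and the words at ranks 9 and 11 stood highest.

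Over the 25 words together, 413 of 66063 eligible copies in introns of genes under 200 kb (0.625%) lay in HNDs. In introns of longer genes it was 274 of 29095 (0.942%) and between genes 1860 of 157050 (1.18%), so these sums, in which the most abundant words weigh most, were lowest in introns of genes under 200 kb. Counted by word, where the choice of words favours that class, its share was above that of longer genes for 17 of 25 words and above that between genes for 18. None of these differences was tested. The part of eligible sequence that HNDs covered had the same order as the sums. It was 861993 bp of 482.756 Mb in introns of genes under 200 kb and 805922 bp of 366.933 Mb in introns of longer genes. Between genes it was 4531606 bp of 1365.58 Mb. The copies of the most shared word that lay in eligible introns ran more often against the host than along it, with 429 against 189 copies, and 22 of its 27 copies in HNDs ran against it.

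Other HNDs held sequence found once. In 580 HNDs (39.9%) every 50-base word, the length of the sequenced reads, that began in the HND occurred once in mm9, and in 125 (8.60%) none did. These include 16 and 11 of the 32 HNDs under 50 bp, whose words run past their ends. The short HNDs of this kind in Irf2, an interferon regulatory transcription factor, and in Rtkn2 are given whole on the plus strand as examples of HNDs without repeated words, with nothing capitalised:
Irf2, chr8:47868633-47868784: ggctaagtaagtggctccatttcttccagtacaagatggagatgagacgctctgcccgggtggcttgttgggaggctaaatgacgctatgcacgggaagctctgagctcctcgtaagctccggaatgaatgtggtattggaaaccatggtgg
Irf2, chr8:47891616-47891674: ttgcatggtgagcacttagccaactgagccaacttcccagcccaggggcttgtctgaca
Rtkn2, chr10:67521656-67521769: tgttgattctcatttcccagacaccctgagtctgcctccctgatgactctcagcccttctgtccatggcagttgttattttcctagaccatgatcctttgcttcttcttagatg
The 125 HNDs in which no 50-base word was unique were in the list as well, although mapping was restricted to unique reads, and how reads came to be counted there was not tested.

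The telomeric hexamer TTAGGG, a recurring sequence at sites bound by ATRX, was counted on both strands. It was in 292 HNDs (20.1%), against 20.1% over all HNDs on chromosomes 1 to 19. Its rate was 510 per Mb of HND against 415 per Mb of eligible intron. Without the 5 HNDs that held the most hexamers, left out after the data were seen, the rate was 433 per Mb, so most of that gap lay in 5 HNDs. Against intergenic HNDs, no difference in the hexamer passed the test, with means over chromosomes of 506 ± 180 per Mb in introns of genes under 200 kb and 495 ± 109 per Mb between genes (SD, n = 19) and a mean log2 difference of -0.02 ± 0.38 (adjusted p = 0.84, two-sided permutation test). A potential G-quadruplex, 4 or more runs of at least 3 G or C with loops of 1 to 7 bases, was found in 92 HNDs (6.33%). Its share was 6.73% over all HNDs on chromosomes 1 to 19 and 6.35% between genes.

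HNDs were less dense in introns of genes under 200 kb than between genes. The question was whether such introns held fewer HNDs than their length would give. Each chromosome gave 1 density, the number of HNDs per Mb of eligible sequence, and the differences over the 19 chromosomes were tested by a two-sided permutation test with 100000 random changes of sign. All p-values were adjusted over 12 such tests. The mean density was 3.02 ± 0.43 per Mb in introns of genes under 200 kb and 5.99 ± 1.06 per Mb between genes (SD, n = 19). The density was lower in introns on 19 of 19 chromosomes, by -0.98 ± 0.28 on the log2 scale or a ratio of 0.506 (adjusted p = 0.00012 in the permutation test, from the smallest p the changes of sign can give). The rule leaves out HNDs that touch an exon or reach within 1 kb of a gene start. Pooled over chromosomes, it gave 3.01 per Mb in these introns and 5.95 between genes. With every HND counted whose midpoint lay in these eligible introns, the density was 3.34 per Mb (3.18 to 3.51, 1613 HNDs). Between genes that count was not made. Introns of longer genes had 3.61 ± 1.15 HNDs per Mb. Introns of genes under 200 kb were lower on 14 of 19 chromosomes, by -0.21 ± 0.38 on the log2 scale, which did not pass (adjusted p = 0.062, permutation test). Chromosomes come from the same pooled list, so these tests speak for the spread along the genome and not for replicates of the condition.

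**Figure D2:**
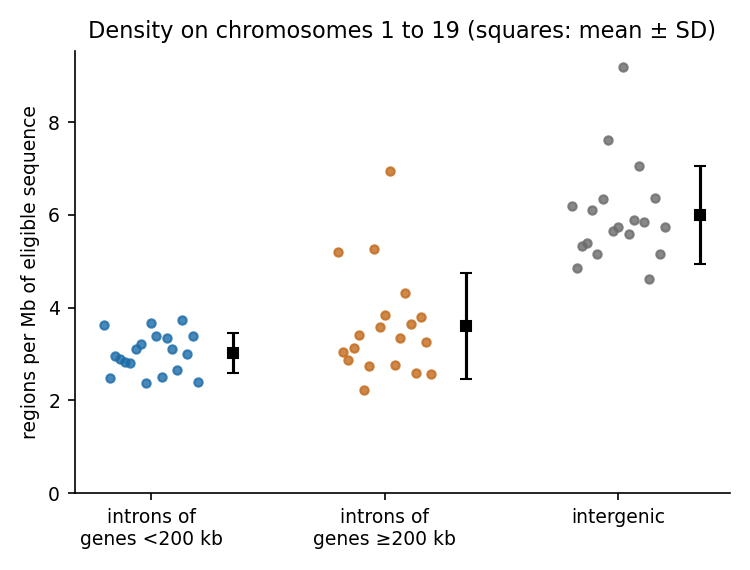
Number of HNDs per Mb of eligible sequence (y axis) on each of chromosomes 1 to 19 (points) in introns of genes under 200 kb, introns of genes of 200 kb or longer and intergenic sequence, with the mean ± SD over chromosomes as squares. The intronic densities of genes under 200 kb lie between 2.37 and 3.74 per Mb, below the intergenic density of the same chromosome in each case.

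The density of HNDs in these introns was lowest on chromosome 9 with 2.37 per Mb and highest on chromosome 16 with 3.74 per Mb. Chromosome 1 held the most HNDs, 128, and chromosome 19 the fewest, 38. The 1454 HNDs covered 861993 bp. The median width was 401.5 bp, with quartiles of 226 and 760 bp. In all, 302 (20.8%) were under 200 bp, against 20.5% over all HNDs on chromosomes 1 to 19. Of the 302, 15 were under 24 bp and so hold no word. Median widths over chromosomes were 405 ± 47.9 bp, against 451 ± 71.9 bp in introns of longer genes (SD, n = 19, adjusted p = 0.068, permutation test) and 402 ± 42.9 bp between genes (adjusted p = 0.84, permutation test). Neither difference passed.

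The 1454 HNDs lay in 1193 host genes, and most hosts held 1. These were 5.82% of the 20509 protein-coding genes under 200 kb, of which 16307 had any eligible intron sequence. A single HND was found in 979 hosts, 2 in 175, 3 in 34, 4 in 3, 5 in 1 and 6 in 1. The 214 hosts with several HNDs held 475 HNDs (32.7%). Where genes overlapped, the host was the gene that shared most bases with the HND, then the longer one. This choice mattered for 29 HNDs, which lay in more than 1 gene. Hosts were long for their kind. Their median length was 78.9 kb, against 14.3 kb over all genes under 200 kb and 20.2 kb over those with eligible intron. It was 108 kb for hosts with several HNDs and 70.5 kb for hosts with 1.

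Longer genes held more HNDs also per base of intron. Genes under 10 kb had 1.27 HNDs per Mb of eligible intron (Poisson interval 0.741 to 2.04, 17 HNDs). The density was 2.34 per Mb in genes of 10 to 25 kb, 2.77 in genes of 25 to 50 kb and 3.07 in genes of 50 to 100 kb. It reached 3.46 per Mb (3.18 to 3.75, 590 HNDs) in genes of 100 to 200 kb and 3.67 (3.47 to 3.87) in genes of 200 kb or longer. The share of genes that were hosts rose from 0.201% under 10 kb to 32.1% from 100 to 200 kb, and longer genes also offer more intron.

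**Figure D3:**
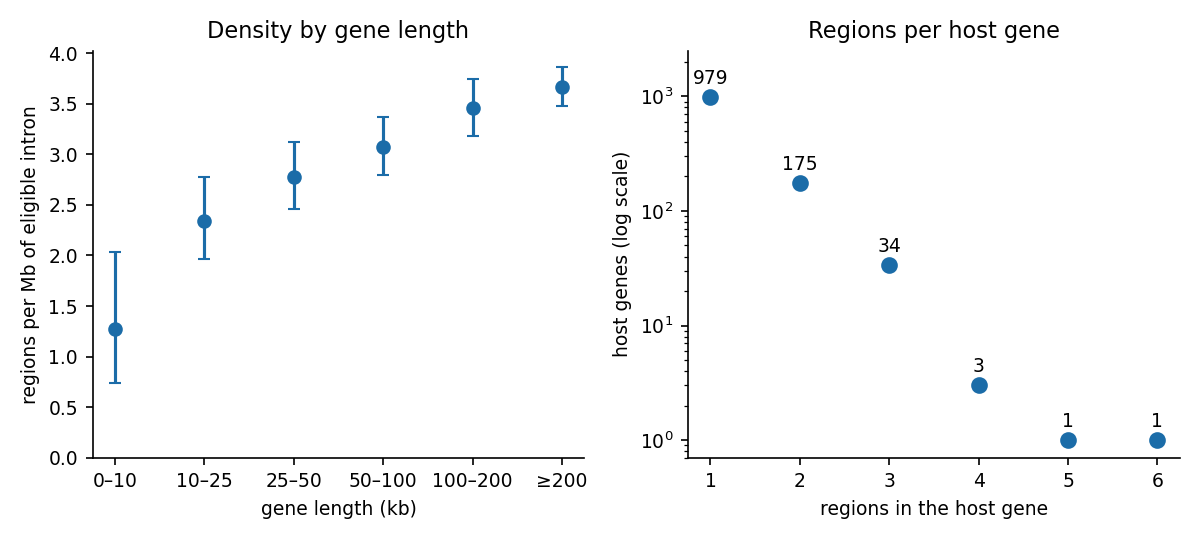
Left, HNDs per Mb of eligible intron (y axis, with 95% Poisson intervals) by the length of the gene in kb (x axis). Right, number of host genes (y axis, log scale) by the number of HNDs they hold (x axis), from 979 hosts with 1 HND to 1 host with 6.

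The distance to the nearest exon separated dense from sparse intron sequence. Densities here count an HND by its midpoint, so fewer lie close to an exon than by the nearest base, with 255 against 342 within 1 kb. By the midpoint, there were 1.43 HNDs per Mb of eligible intron within 1 kb of an exon (1.26 to 1.62). The density was 3.05 per Mb at 1 to 2 kb, 3.98 at 2 to 5 kb, 4.52 at 5 to 10 kb, 4.39 at 10 to 20 kb and 4.57 (3.67 to 5.63) beyond 20 kb. It thus rose over the first 5 kb and then stayed within its counting intervals. An HND that touches an exon is left out by the rule, which lowers the first value. When instead every HND of the list was counted whose midpoint lay in eligible intron, exon-touching ones included, the density within 1 kb was 2.28 per Mb (2.06 to 2.51, 405 HNDs) and that at 5 to 10 kb was 4.52 per Mb. By chromosome, this count gave 2.31 ± 0.81 per Mb within 1 kb and 4.47 ± 1.05 per Mb from 5 kb on (SD, n = 19), with the distant sequence denser on 18 of 19 chromosomes. These values were looked at after the data were seen and were not tested.

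Introns of genes of 200 kb or longer had a similar order, with 1.86 HNDs per Mb within 1 kb of an exon, 3.30 at 1 to 2 kb, 3.51 at 2 to 5 kb and 4.46 at 5 to 10 kb. Beyond 20 kb they had 3.90 per Mb. Within 2 kb of an exon, hosts under 50 kb, of 50 to 100 kb and of 100 to 200 kb had 1.75, 1.90 and 2.36 HNDs per Mb, against 2.46 in longer genes. At 2 to 10 kb the values were 4.45, 4.26 and 3.95, against 4.00. Beyond 10 kb they were 5.98, 4.49 and 4.33, against 3.87, and in both of these ranges hosts under 50 kb had the highest density, beyond 10 kb from 16 HNDs (exact Poisson interval 3.42 to 9.71). Repeated words also became more frequent away from exons. Of eligible positions sampled every 2000 bp, 3.84% within 1 kb of an exon and 9.08% at 5 to 10 kb began a 24-base word of 100 or more copies. The part of this in the density was not tested.

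**Figure D4:**
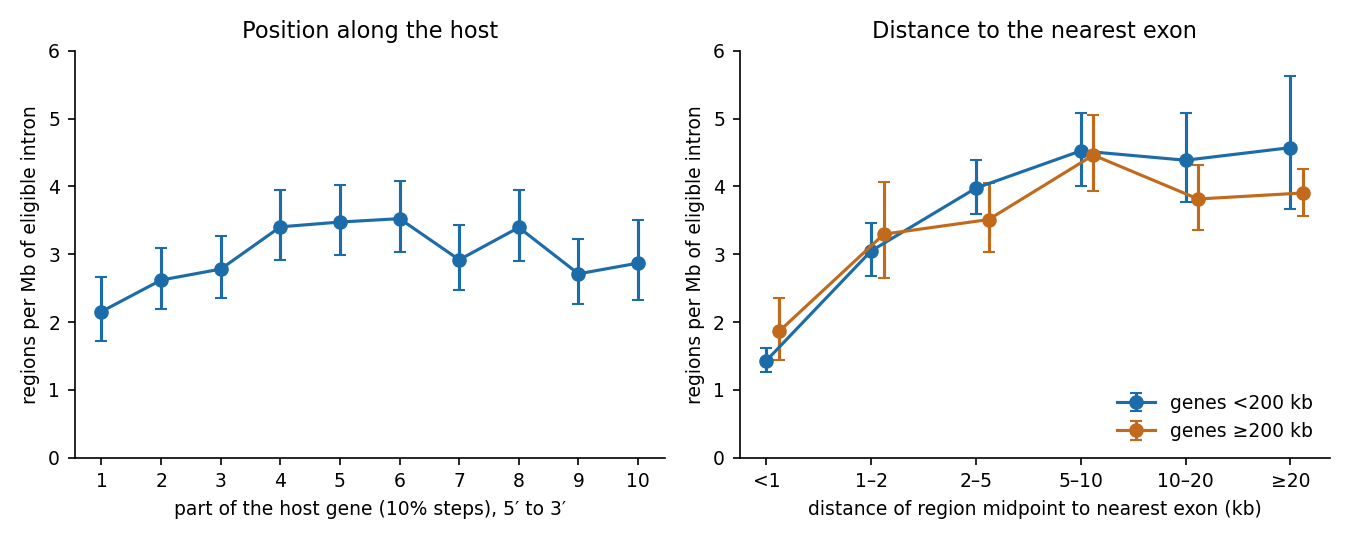
HNDs per Mb of eligible intron (y axis, with 95% Poisson intervals). Left, by position in the host gene in steps of 10% from 5′ to 3′ (x axis). Right, by the distance of the HND midpoint to the nearest exon in kb (x axis) for genes under 200 kb and for longer genes, both lowest within 1 kb of an exon.

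Intron length followed the same order. Introns under 5 kb had 1.59 HNDs per Mb, those of 5 to 20 kb 3.43, those of 20 to 50 kb 4.15 and those of 50 to 200 kb 4.22 per Mb. HNDs that touch an exon are left out by the rule, which can lower the value most in short introns. By how much was not measured. The median distance from the nearest base of an HND to an exon was 2.98 kb, the median intron was 15.9 kb long, and the median share of the intron taken up was 2.86%.

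Along the host, the first and the last 50% of the length each held 727 HNDs. The mean density over chromosomes was 2.96 ± 0.62 per Mb in the 5′ part and 3.09 ± 0.44 per Mb in the 3′ part (SD, n = 19), a difference of -0.08 ± 0.34 on the log2 scale that did not pass (adjusted p = 0.39, permutation test). In steps of 10% of the host's length, the density was lowest in the first step with 2.16 per Mb (1.72 to 2.66) and highest in step 6 with 3.53 per Mb (3.03 to 4.08). The last step had 2.87 per Mb. HNDs that reach within 1 kb of a gene start are left out, which can lower the first step by an amount that was not measured. First introns had 3.25 ± 0.66 HNDs per Mb and later introns 2.96 ± 0.45, higher in the first on 12 of 19 chromosomes (adjusted p = 0.13, permutation test).

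HNDs in these introns held less repeated sequence than intergenic HNDs when hosts up to 200 kb were taken. A non-tandem word of 100 or more copies was found in 67.1 ± 5.48% of HNDs per chromosome, against 74.0 ± 5.18% of intergenic HNDs, lower on 16 of 19 chromosomes (SD, n = 19, adjusted p = 0.0029, permutation test). The share of 50-base words found once was 76.3 ± 8.10% against 71.2 ± 6.36%, higher on 17 of 19 chromosomes (adjusted p = 0.029, permutation test). G+C content was 45.1 ± 1.00% against 44.5 ± 0.39%, higher on 14 (adjusted p = 0.037, permutation test). With hosts under 100 kb, none of these 3 differences passed, at -4.36 points for repeated words, 2.18 points for unique words and 0.504 points for G+C content (adjusted p = 0.14, 0.43 and 0.16, permutation tests). G+C content also did not pass beyond 5 kb of gene starts (adjusted p = 0.053), nor did repeated words when 1000 copies were asked for (-4.44 points, adjusted p = 0.062, permutation tests). Against introns of longer genes, the differences of -2.41 points in unique words and 3.03 points in repeated words did not pass (adjusted p = 0.39 and 0.18, permutation tests). Chromosome 9, which holds the widest HNDs, in St3gal4, had a difference of -33.1 points in unique words, and without it, an alternative added after the data were seen, the mean was -0.70 points (adjusted p = 0.75, permutation test). The difference from intergenic HNDs was then 6.54 points (adjusted p = 0.00018, permutation test). The background differs too. Of sampled positions in eligible introns of genes under 200 kb, 93.1% were unique at 50 bases, against 86.8% between genes, while in the HNDs pooled these shares were 76.7% and 71.7%. Counted on 24-base words of 100 or more copies, the HNDs pooled had 16.9% in these introns, where the eligible sequence had 6.38%. Tandem words were left out of the HND shares but not of those of eligible sequence, so the measures are not the same. Between genes the shares were 23.7% in HNDs and 12.1% in eligible sequence, and in introns of longer genes 18.3% and 7.42%. On these unlike counts, the HNDs of each class had a higher share of repeated words than their own background. The lower level in introns than between genes was present in the background as well. The part of the background in the differences between HNDs was not tested.

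The host with the most HNDs was Ugt1a10, a member of the UDP-glucuronosyltransferase family that conjugates bilirubin and drugs. It held 6 HNDs, all in the intron of 159 kb between its own first exon and the shared exons. They began 20.5 to 152 kb from the gene start and were 239, 243, 383, 395, 654 and 791 bp wide. Other Ugt1a genes overlap this intron, and the 6 HNDs lay in 2 to 8 genes each, so the host is a matter of the rule. The nearest exon was 43 bp away from the widest of them.

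Lace1, which encodes a mitochondrial AAA-type ATPase, held 5 HNDs in 4 introns. They were 168 to 2206 bp wide and lay between 15.1% and 70.3% of the gene's length. Rtkn2 held 4 HNDs in introns 2, 8, 14 and 16 of its 16, and the last of these, shown above, lay 0.719 kb from the gene's end. Irf2 also held 4, in introns 1 and 2, between 40.5% and 61.8% of its 108 kb. One of them was 2211 bp wide and had no non-tandem 24-base word found more than once. Osbp2, an oxysterol-binding protein gene, held 4 in introns 1 and 2, the widest of 2873 bp. In Lace1, Rtkn2, Irf2 and Osbp2 neighbouring HNDs lay over 5 kb apart.

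The hosts with 3 HNDs and the highest number per kb of eligible intron were Zfp560, 1700012B07Rik, Psma8, Nsg2, 2610203C22Rik, Bcat1 and St3gal4. Zfp560, a zinc finger protein gene, had them all in intron 1, with widths of 90, 194 and 793 bp. In Nsg2, a gene for a neuronal vesicle protein, they were 759, 783 and 1206 bp wide and fell in introns 2 and 4. Psma8 encodes a proteasome subunit of the testis, and its HNDs were 110 to 980 bp wide. The map of the hosts with the most HNDs shows both single and neighbouring HNDs.

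**Figure D5:**
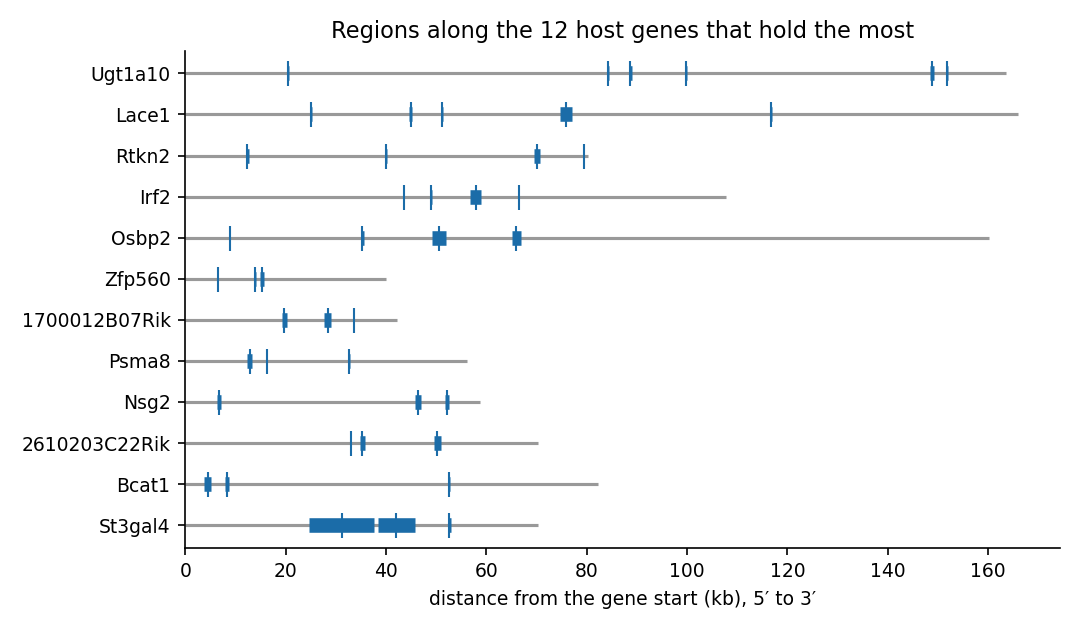
Position of the HNDs (blue, to scale, with a tick at each midpoint) along the 12 host genes that hold the most, with distance from the gene start in kb (x axis) and each gene drawn 5′ to 3′ in grey. Most HNDs are narrow beside their host, and the wide pair in St3gal4 stands out.

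St3gal4, a sialyltransferase gene, held the widest HNDs of all 1454. They were 12904 and 7498 bp wide, at chr9:34886760-34899663 and chr9:34878572-34886069, in the first intron of 61.0 kb and 690 bp apart. They shared 2589 distinct 24-base words. Only 8.02% and 2.35% of their 50-base words were found once in mm9. Within each, 94.2% and 92.4% of the non-tandem words occurred more than once, and 49.3% and 53.6% of the steps from a word to its next copy were 1200 to 1300 bp long. The most frequent step was 1242 bp in the wider HND and 2515 bp in the other. A 24-base word that occurred 18 times in the pair is capitalised here in its sequence surroundings, to show what recurs:
St3gal4, chr9:34887165-34887284: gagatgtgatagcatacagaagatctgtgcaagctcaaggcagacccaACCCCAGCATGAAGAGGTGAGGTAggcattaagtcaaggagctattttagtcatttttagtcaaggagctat
The remaining HND in this intron was 577 bp wide.

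The next widest HNDs held mostly unique sequence. They were 5099 bp in Dclk2, a doublecortin-like kinase gene, 4870 bp in 1700019D03Rik and 3662 bp in Epha4, an ephrin receptor gene. Their 50-base words were found once in 88.4%, 97.7% and 100% of cases. In all, 45 HNDs (3.09%) were 2000 bp or wider, against 2.76% over all HNDs on chromosomes 1 to 19.

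The HNDs nearest to an exon were in Mtmr7, a myotubularin-related phosphatase gene, at 3 bp, in Efcab3, an EF-hand gene, at 7 bp and in D8Ertd82e at 9 bp. The HND of D8Ertd82e was 274 bp wide, all its 50-base words were found once, and it is given whole on the plus strand as an exon-near HND:
D8Ertd82e, chr8:37192225-37192498: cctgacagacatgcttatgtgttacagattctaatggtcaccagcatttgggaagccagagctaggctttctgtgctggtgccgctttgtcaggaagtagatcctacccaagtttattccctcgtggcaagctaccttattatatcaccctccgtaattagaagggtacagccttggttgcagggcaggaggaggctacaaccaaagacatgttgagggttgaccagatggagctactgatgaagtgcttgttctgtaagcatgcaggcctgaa
The farthest were in Snrpn, an imprinted gene for a splicing protein, at 61.1 kb, in Htr1f, a serotonin receptor gene, at 56.0 kb and in Tmem163, a transmembrane protein gene, at 55.2 kb. The last was listed with a width of 1 bp.

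Few consecutive HNDs of a host shared an exact 24-base word. Hosts with several HNDs gave 261 pairs of consecutive HNDs, of which 120 lay in the same intron. The median gap was 16.5 kb, with quartiles of 5.11 and 38.8 kb, and 25 gaps were within 1 kb. The closest pair was in intron 5 of Vmn2r21, a vomeronasal receptor gene, with a gap of 648 bp. Its HNDs of 672 and 402 bp had no 50-base word found once but shared no 24-base word. With tandem words left out, 8 of the 261 pairs shared a word and 3 shared at least 50. Pairs that were not consecutive were not compared. After St3gal4 the pair with the most was in Tbce, a tubulin-folding cofactor gene, with 119 shared words over a gap of 1875 bp. Counting all HNDs, 17.1% of those in introns of genes under 200 kb (Wilson interval 15.3 to 19.1%) had a neighbour within 10 kb, against 19.4% in longer genes and 20.4% between genes.

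Gene groups were compared by the number of hosts, beside 5.82% over all genes under 200 kb and 3.01 HNDs per Mb of eligible intron (2.86 to 3.17). None of the 25 pluripotency genes found of a list of 26, which included Pou5f1, Sox2 and Nanog, was a host. These genes are short, with a median of 9.25 kb, and together had 0.455 Mb of eligible intron, in which a count of 0 allows up to 8.11 per Mb (exact Poisson interval). Among 25 gene records for 24 H3K9 methylation factors and ATRX partners, 1 was a host. It was Setdb1, the H3K9 methyltransferase, with an HND of 45 bp in intron 8. Among the H3K9 demethylases, 2 of 8 gene records for 7 symbols were hosts. Kdm4c held an HND of 117 bp in intron 23 and Kdm4d one of 1024 bp in intron 2.

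Of the gene families by symbol, solute carriers (Slc) had 35 hosts of 329 genes (10.6%) with 43 HNDs, or 4.17 per Mb (3.02 to 5.62). Among them Slc12a8, Slc14a2, Slc15a5, Slc2a9, Slc35f3, Slc38a9, Slc7a14 and Slc9a2 held 2 each. Zinc finger genes (Zfp) had 25 hosts of 356 (7.02%) with 34 HNDs, or 5.61 per Mb (3.89 to 7.85), led by Zfp462, Zfp560 and Zfp652 with 3 each. The intervals of Zfp and of Ugt, whose 6 HNDs were those of Ugt1a10, lay above the density over all genes. That of Slc did so by little, with its lower end inside the interval over all genes. That of Usp lay below, at 0.468 per Mb (0.0118 to 2.61, 1 HND). These intervals count HNDs of 1 gene as independent, were not corrected for the number of families and are no test. Dynein heavy chains (Dnah) had 3 hosts of 9, Dnahc10, Dnahc12 and Dnahc3. They had 6.78 HNDs per Mb (2.20 to 15.8), at a median gene length of 107 kb. Olfactory receptors (Olfr), which are mostly without introns, had 2 hosts of 1106, Olfr27 and Olfr56. Collagens (Col) had 5 hosts of 36, and Col18a1, with 3 HNDs, held the most. Their density was 2.99 per Mb (1.29 to 5.88), at a median gene length of 87.3 kb. ABC transporters had 7 hosts of 46, each with 1 HND, or 2.70 per Mb (1.09 to 5.57) at a median of 61.0 kb. Potassium channels (Kcn) had 6 of 77, led by Kcnk10 with 3, or 3.33 per Mb (1.44 to 6.56) at a median of 19.6 kb. Over all genes under 200 kb the median was 14.3 kb. Cytochromes P450 (Cyp) had 5 of 98, Rab GTPases 5 of 62, interleukins and their receptors (Il) 7 of 80 and CD antigens 4 of 94. The Usp, Ptpr, Trim, Serpin, Adam and Fbx families had 1 host of 45 genes, 1 of 14, 2 of 68, 2 of 59, 3 of 43 and 4 of 74. No family was tested, and none is called different from the others.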

How the data were processed

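H3K9me3, histone H3, IgG and input libraries of WT and *Atrx* KO ESCs were sequenced by the authors in single-end runs with a read length of 50 bp, and reads with 1 place in mm9 and at most 2 mismatches were kept. The submitters' processing notes name Bowtie2, MACS2 and bedtools. Broad peaks were called by the authors against input, and WT regions that KO cells lacked were retained. Peaks were called per replicate and reduced to a consensus, and the rule for it and the overlap that counted as absent are not given in the sources used here.

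The deposited file holds the chromosome, start and end of each HND in bp and no other column, so its unit is a position and not a count or a signal, and 0 columns hold values of single libraries. The reads behind each HND are therefore unknown here, and the library depths that the study states were not used. Starts are given counted from 1. HNDs were classed with GENCODE M1, whose coordinates are on mm9. Eligible sequence is every known base at which the rule for that class holds. Densities are HNDs per Mb of eligible sequence. An HND belonged to the gene that shared most bases with it, then to the longer gene, and introns are the gaps between all merged exon records of the host. For words 24, 36 and 50 bases long, exact copy numbers over both strands of the genome were obtained. Sequences were read from the mm9 genome.

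Each comparison used 19 chromosome values and a two-sided permutation test with 100000 random changes of sign, and p-values were adjusted over 12 tests by the Benjamini-Hochberg method. Log2 ratios were averaged over chromosomes. Densities have exact 95% Poisson intervals and shares have Wilson intervals. The class rule, the word counts and the permutation test were tested on simulated data. The members and the lists of genes were chosen with earlier results of these data known. Named genes are the 12 hosts with the most HNDs (ties by HNDs per kb of eligible intron), the 5 widest HNDs, the 3 nearest to and the 3 farthest from an exon, hosts of the printed sequences, the closest pair in an intron and hosts in the lists. Tbce was named after its values were seen. Some sequences are not reported here. The alternatives were other rules for exons, gene starts and host length, leaving out narrow HNDs, joining HNDs within 1 kb, pooling chromosomes and other word settings. Density per Mb of unique sequence and leaving out chromosome 9 or the 5 HNDs with the most TTAGGG were added after the data were seen. Repeat annotation, chromosomes X and Y (apart from 1 count each) and any comparison of libraries were left out. Python 3.11.15, numpy 2.4.6, pandas 2.3.3, scipy 1.17.1, numba 0.67.0 and matplotlib 3.10.9 were used.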

Additional observations from a re-analysis of the deposited data

Results flagged for a closer look

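Chromosome X lies outside the rule, which covers chromosomes 1 to 19. On it, 60 HNDs met the rest of the rule, at 2.88 per Mb of eligible intron (exact Poisson interval 2.20 to 3.70), and their median width was 491 bp. They were singled out because no comparison uses them. On chromosome Y there were 14 such HNDs. Samples were not searched for ones that stand apart, since the list holds no value per library.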

How the results depend on the processing

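No paired analysis was possible because single libraries have no values in the list, and for the same reason leaving out single replicates gave no value. The lower density than between genes kept its direction under every alternative tried and passed in each that was tested, with log2 differences from -1.12 to -0.93. Of 119 values under alternatives, 5 lost and 5 gained the threshold, 3 counts moved by over 1.5 times, and 0 differences that passed changed sign. In 5 differences that did not pass, 8 values changed sign. TTAGGG was 0.04 on the forward strand only and 0.03 pooled, against -0.02 (log2). The 5′ against 3′ density was 0.04 beyond 5 kb of gene starts, against -0.08, and first against later introns -0.03 with hosts under 100 kb, against 0.12 (log2). Width against intergenic HNDs was -17.6, -5.55 and -7.29 bp with hosts under 100 kb, without HNDs under 200 bp and after joining, against 2.87 bp. HNDs with words of 1000 copies were -0.97 points against introns of longer genes, where 100 copies gave 3.03. With hosts under 100 kb, where the class of long genes starts at 100 kb, 864 HNDs in 752 hosts remained, 98 of them with several, and the difference from introns of longer genes passed for density (-0.36 on the log2 scale, adjusted p = 0.0018), median width (-57.0 bp, 0.011) and unique 50-base words (-6.33 points, 0.029), by the permutation test. Under the same limit, the differences from intergenic HNDs no longer passed for unique words (2.18 points, adjusted p = 0.43), words of 100 copies (-4.36 points, 0.14) and G+C content (0.504 points, 0.16), all by the permutation test. Joining HNDs within 1 kb brought density (-0.22 on the log2 scale) and width (-55.0 bp) against introns of longer genes past the threshold, both with adjusted p = 0.043 in the permutation test. G+C content did not pass beyond 5 kb of gene starts (0.573 points, adjusted p = 0.053), nor did words of 1000 copies (-4.44 points, 0.062, permutation tests). The cause was not tested in these cases. Per Mb of unique sequence, added after the data were seen, the log2 difference was -0.21 from introns of longer genes and -1.08 from intergenic sequence (adjusted p = 0.068 and 0.00012, permutation test). The unknown depth per HND limits every value to presence in the list.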
